A study of Mus musculus with 4 samples.

Results

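The comparison described here is that of the monocytes of an RTT_PTGS12KO melanoma with those of an NTT melanoma, gene by gene, in 2 monocyte clusters of the deposited annotation, Monocyte_1 and Infl_Mono, the second of which is led by interferon-induced genes. It asks what remains different from a therapy-naive tumour once a therapy-resistant one has lost Ptgs1 and Ptgs2. The members are the 10575 cells that carry either name in either tumour, of 33368 annotated cells in all. Monocyte_1 held 4977 NTT and 3347 RTT_PTGS12KO cells, and Infl_Mono held 1616 and 635. UMIs (unique molecular identifiers, 1 for each captured RNA molecule) were summed over the cells of a cluster in a tumour and expressed as counts per 1000000 UMIs (CPM).

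All tumours grew from YUMM1.7 mouse melanoma lines (with Braf V600E and Cdkn2a-/- among their alleles) that express ovalbumin, in Rag2-/- hosts, which have no T or B cells of their own. Transgenic OT-1 T cells, specific for a peptide of ovalbumin, were transferred on day 7, and live CD45+ (immune) cells were sorted on day 10, 72 h later. NTT (line Y1.7_NTT_3A6) had never met a targeted drug. RTT (line Y1.7_RTT_2B12), RTT_ROSA26 and RTT_PTGS12KO came from cells made resistant to targeted therapy and were kept in the BRAF inhibitor dabrafenib in culture. RTT_ROSA26 was edited at a control locus, and RTT_PTGS12KO was cut at Ptgs1 and Ptgs2. The editing was done in the cancer cells, so the host monocytes described here carry both genes in each of the 4 tumours and cannot serve to check the edit. Resistance, clone and edit all separate RTT_PTGS12KO from NTT and cannot be told apart in this comparison. With 1 sample a group there is no test: intervals are exact Poisson or binomial and cover counting error only, and the 3 chip loads of the same pooled cells show technical spread, not biological variation.

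Monocytes enter a tumour from the blood with high Ly6c2 and Ccr2, and there turn into macrophages or into cells that present antigen and make T cell-attracting chemokines. Interferons drive a shared set of genes in them through STAT and IRF factors. Ptgs1 and Ptgs2 encode the cyclooxygenases COX1 and COX2, the entry enzymes of prostaglandin synthesis, and prostaglandin E2 acts on monocytes through the receptors Ptger2 and Ptger4, which raise cAMP.

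The guides that made RTT_PTGS12KO are shown because they define the tumour under comparison. In GRCm38 with the GENCODE vM21 annotation, the Ptgs1 guide matches chr2:36251273-36251295 on the minus strand, in the coding part of exon 11 of 11, and the Ptgs2 guide matches chr1:150104011-150104033 on the minus strand, in the coding part of exon 7 of 10. Both are written 5′ to 3′ with the adjoining PAM, the bases next to the target that Cas9 needs, in capitals.
Ptgs1 guide: gcacacggaaggaaacatagGGG
Ptgs2 guide: gttgtgctcccgaagccagaTGG

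The monocytes of both tumours were read deeply. The sums held 39632698 UMIs in NTT and 36502431 in RTT_PTGS12KO for Monocyte_1, and 11827546 and 5011892 for Infl_Mono. Single cells of RTT_PTGS12KO were deeper, with a median of 9667 UMIs against 7273 in Monocyte_1 and 7427 against 6787 in Infl_Mono, and had a higher median mitochondrial share, 2.11% against 1.44% and 2.14% against 1.42%. All 8 monocyte markers reached 20 CPM in both clusters, but so did the 10 macrophage markers, and 2071 of 3347 RTT_PTGS12KO and 3884 of 4977 NTT cells of Monocyte_1 held more monocyte than macrophage marker UMIs (584 of 635 and 1395 of 1616 in Infl_Mono). The type I interferon genes were higher in Infl_Mono than in Monocyte_1 by a median log2 of 1.27 in NTT and 1.32 in RTT_PTGS12KO. Since the clusters were drawn from these same cells, that is a description. Within a load, no barcode was used by more than 1 cell, and 4 of 10571 barcodes of these monocytes appeared in more than 1 load.

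RNA of T and NK, pigment and dendritic cells was scarce, whereas macrophage and neutrophil markers differed between the tumours. None of 18 T and NK cell markers reached 20 CPM, and their sum in Monocyte_1 was 19.6 CPM in NTT and 19.8 in RTT_PTGS12KO. Melanoma and stroma markers summed to 46.9 and 67.0 CPM, with 1 of 16 at 20 CPM or more and the pigment genes Tyr, Tyrp1 and Dct at 0, and 1 of 13 dendritic cell markers reached 20 CPM. Macrophage markers summed to 5719 CPM in NTT (loads 5420 to 5873) and 7070 in RTT_PTGS12KO (loads 6942 to 7137) in Monocyte_1, and to 5016 (4627 to 5345) and 3775 (3198 to 4662) in Infl_Mono. Neutrophil markers summed to less in RTT_PTGS12KO in both clusters, 3383 CPM in NTT against 2388 in Monocyte_1 and 3335 against 2351 in Infl_Mono. Of 12, 6 and 7 reached 20 CPM. In Monocyte_1 all 6 were below NTT and 1 was called lower. In Infl_Mono 3 were above NTT and 4 below, with 2 called higher and 0 lower. The part of these marker differences in the results that follow was not tested, except where a value is given for cells with more monocyte than macrophage marker UMIs.

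The 2 tumours were close for most genes. Of 4826 genes with at least 20 CPM in Monocyte_1, 98.8% lay within 2-fold. A gene was called when it differed at least 2-fold and all 3 loads of a tumour lay on 1 side of all 3 loads of the other; 30 genes (0.622%) were called higher in RTT_PTGS12KO and 28 (0.58%) lower. In Infl_Mono, 96.8% of 4759 genes lay within 2-fold, with 52 (1.09%) called higher and 94 (1.98%) lower. The median log2 ratio over all genes was -0.04 in Monocyte_1 and -0.02 in Infl_Mono. Loads lay apart, at any fold, for far more genes: 24.6% higher and 35.7% lower in Monocyte_1, and 21.5% and 25.8% in Infl_Mono. A total of 34 genes were called in both clusters.

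**Figure D1:**
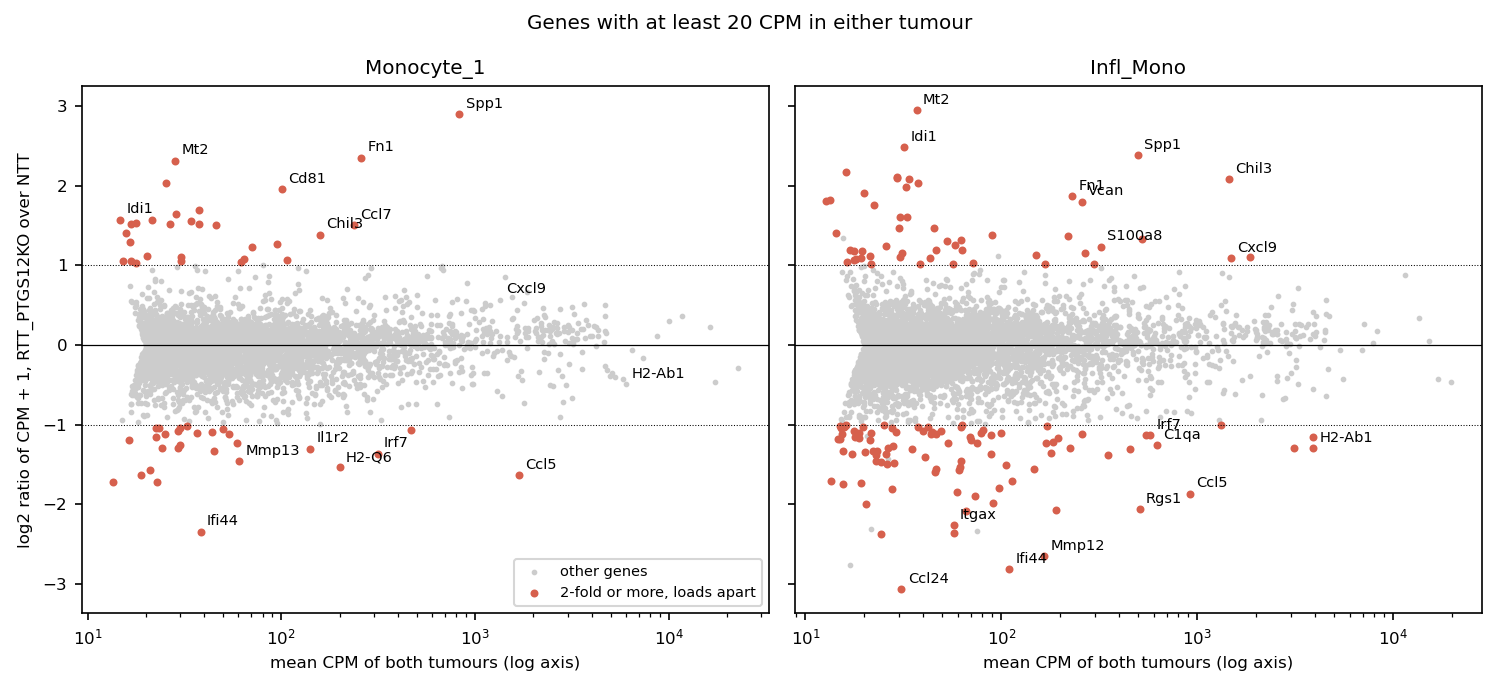
Log2 ratio of CPM + 1 in RTT_PTGS12KO over NTT (y axis) against the mean CPM of both tumours (x axis, log scale), 1 point a gene with at least 20 CPM in either tumour, for Monocyte_1 (left) and Infl_Mono (right). Red points differ at least 2-fold with loads apart, 58 genes on the left and 146 on the right, and dotted lines mark 2-fold; Spp1, Fn1 and Mt2 lie at the top of both panels and Ifi44 near the bottom.

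The size of these differences can be set beside that between RTT and RTT_ROSA26, both of which keep Ptgs1 and Ptgs2. Among 311 genes with a mean of at least 500 CPM in Monocyte_1, the median absolute log2 ratio was 0.19 between RTT_PTGS12KO and NTT and 0.20 between RTT_ROSA26 and RTT. Among 325 such genes in Infl_Mono it was 0.21 in both. RTT and RTT_ROSA26 held 384 and 54 Monocyte_1 cells and 138 and 86 Infl_Mono cells, so their values carry more counting error.

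Genes induced by type I interferon were lower in RTT_PTGS12KO across the list. In Monocyte_1 all 55 of the list members with a UMI were below NTT, with a median log2 ratio of -0.61. Of these, 49 reached 20 CPM, 7 of them in NTT alone; all 49 had loads apart (35.7% of all genes did so in this direction) and 9 were called lower, with a median of -0.65 (single loads -0.63 to -0.60), beside -0.04 for all genes. In Infl_Mono, where the list is expressed more strongly, 50 of 54 were below NTT and 5 were called lower, with a median of -0.54 (single loads -0.62 to -0.41). The medians against the same NTT cells were -0.94 for RTT and -0.60 for RTT_ROSA26 in Monocyte_1, and -0.32 and -0.69 in Infl_Mono. Restricted to cells with more monocyte than macrophage marker UMIs, the Monocyte_1 median was -0.45.

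Ifi44, an interferon-induced gene, differed most within the list. Its level in Monocyte_1 was 66.3, 63.7 and 64.2 CPM in the 3 loads of NTT and 12.5, 12 and 11.4 in those of RTT_PTGS12KO, a log2 ratio of -2.35. In Infl_Mono Ifi44 was at 196, 184 and 197 CPM against 31.6, 27.3 and 22.7 (-2.81). The loads of the tumours were far apart in both clusters, and RTT (12.7 CPM in Monocyte_1) and RTT_ROSA26 (17.0 CPM) were also low. Irf7, the factor that amplifies interferon production, was at 432, 464 and 463 CPM against 173, 171 and 182 in Monocyte_1 (-1.37) and at 740, 768 and 838 CPM against 342, 371 and 360 in Infl_Mono (-1.13). Ddx60, which takes part in sensing viral RNA, had log2 ratios of -1.58 and -1.84.

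The size of the difference varied among the members. In Monocyte_1, Slfn4 (-1.25), the oligoadenylate synthetase-like gene Oasl1 (-1.12), the antiviral effector gene Ifit3 (-1.10) and the exonuclease gene Isg20 (-1.08) were called lower, close to the 2-fold line: with CPM + 10 these values were -0.95, -0.95, -0.88 and -0.82, and in cells with more monocyte than macrophage marker UMIs -0.96, -0.92, -0.85 and -0.78, so that all 4 calls were lost. Isg15, a ubiquitin-like modifier, had 622 CPM in NTT and 371 in RTT_PTGS12KO (-0.74), short of 2-fold with loads apart. In Infl_Mono, Rsad2, which encodes viperin, overlapped between loads (-0.21), as did Ifit1 (-0.18).

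Promoters of the list are shown because its members moved together. The core that interferon-stimulated response elements share, GAAA and GAAA with any 2 bases between them, was searched on both strands in the 250 bases before each RefSeq gene start (GRCm38.p6). It occurred in 21 of the 46 list members with an entry, in 2.98% of all 32851 promoters and in 3.46% of the 27025 genes with a promoter. The windows of Isg15 (chr4:156200862-156200921, minus strand), Ifit3 (chr19:34583348-34583407, plus strand), Rsad2 (chr12:26456538-26456597, minus strand) and Ddx60 (chr8:61928009-61928068, plus strand) follow, 5′ to 3′, with the matches in capitals. A match is a description and not evidence of a bound site. The 250 bases held 3 matches in Isg15, all shown, and 1 in Rsad2. Ifit3 and Ddx60 held 2 each, of which the windows show 1. Ddx60 was called lower in both clusters and Rsad2 in neither.
Isg15: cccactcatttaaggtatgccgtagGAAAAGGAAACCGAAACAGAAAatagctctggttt
Ifit3: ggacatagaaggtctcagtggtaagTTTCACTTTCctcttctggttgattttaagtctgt
Rsad2: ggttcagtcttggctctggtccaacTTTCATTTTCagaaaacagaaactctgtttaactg
Ddx60: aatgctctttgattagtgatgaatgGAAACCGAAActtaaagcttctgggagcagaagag

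**Figure D2:**
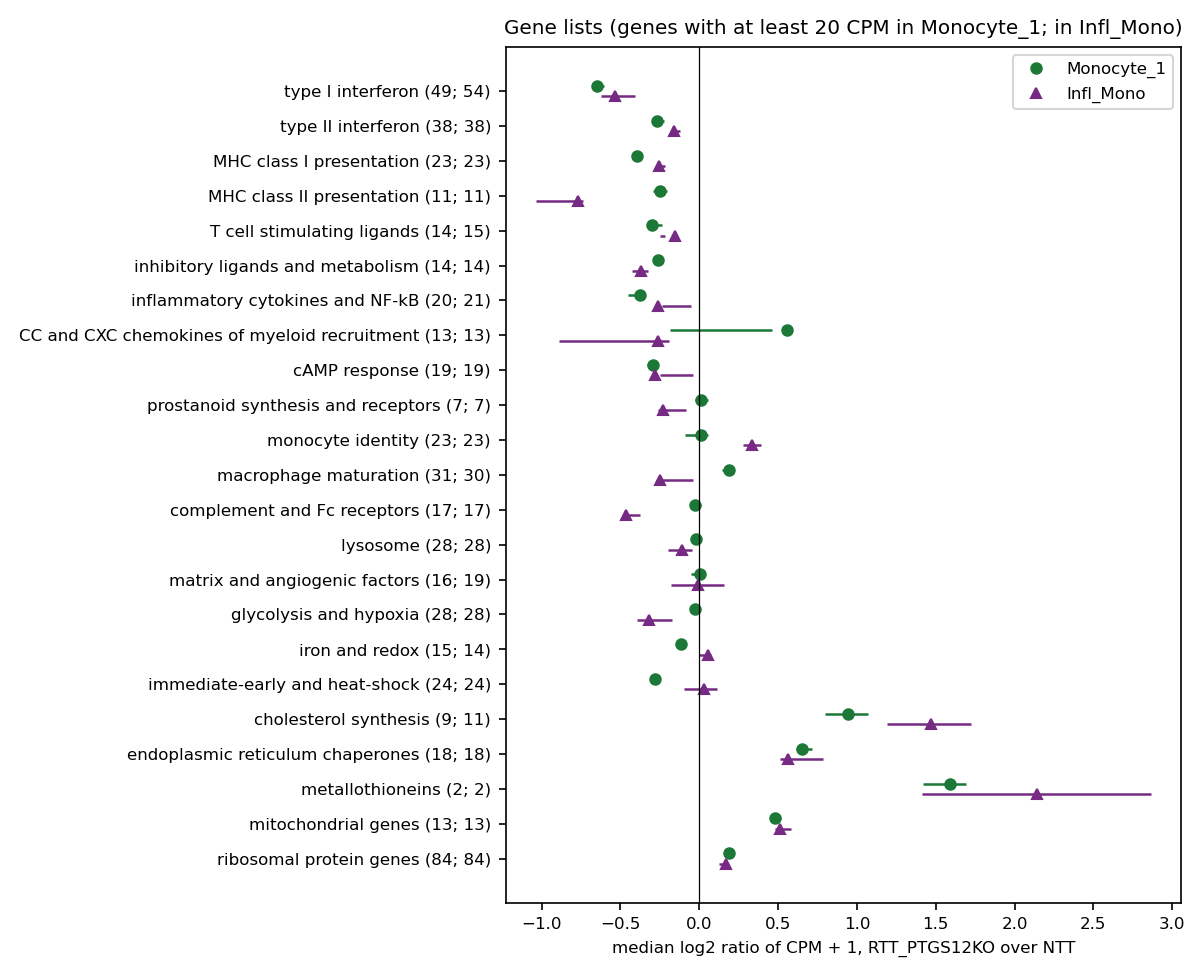
Median log2 ratio of CPM + 1 in RTT_PTGS12KO over NTT (x axis) for the members of each gene list with at least 20 CPM, in Monocyte_1 (circles) and Infl_Mono (triangles); lines span the values from the 3 loads taken singly, and the numbers beside each name are the genes counted in each cluster. Interferon and antigen presentation lists lie left of 0, and cholesterol synthesis, chaperone, metallothionein and mitochondrial lists lie right of it.

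Genes that interferon gamma induces moved less as a group, and not all in 1 direction. Of 38 members in each cluster, 30 in Monocyte_1 and 24 in Infl_Mono were below NTT, with medians of -0.27 and -0.16. In cells with more monocyte than macrophage marker UMIs the Monocyte_1 median was -0.13. Cxcl9, the chemokine that draws CXCR3-bearing T cells, was higher in RTT_PTGS12KO. It was at 1062, 1045 and 1137 CPM in the NTT loads and 1615, 1733 and 1496 in RTT_PTGS12KO in Monocyte_1 (0.57), and at 821, 924 and 1064 against 2098, 2121 and 1920 CPM in Infl_Mono (1.09), where it was called higher. No loads overlapped. RTT and RTT_ROSA26 had 1509 and 2440 CPM in Monocyte_1, also above NTT, and 795 and 456 CPM in Infl_Mono. Gbp2, a guanylate-binding protein of cell-autonomous defence, had 1029 and 1856 CPM in Infl_Mono (0.85), whereas its relative Gbp2b was called lower there, at 174 and 52.5 CPM (-1.71). Cxcl10 differed little, with 743 and 838 CPM in Monocyte_1 (0.17) and 2044 and 2410 CPM in Infl_Mono (0.24).

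Of the ligands that attract or stimulate T cells, 11 of 14 in Monocyte_1 and 11 of 15 in Infl_Mono were below NTT. Of these, 1 and 3 were called lower, beside 0.58% and 1.98% of all genes. Cxcl9, also in the list, was called higher in Infl_Mono. The list summed to 5775 CPM in NTT and 4459 in RTT_PTGS12KO in Monocyte_1, and to 6053 and 5962 in Infl_Mono. Ccl5, which attracts T cells, was at 2561, 2545 and 2533 CPM in NTT and 831, 779 and 840 CPM in RTT_PTGS12KO in Monocyte_1 (-1.64). In Infl_Mono the Ccl5 loads were 1551, 1531 and 1267 CPM against 442, 481 and 294 (-1.87). Ccl5 was thus called lower in both clusters, and was at 800 and 316 CPM in RTT and at 274 and 95.7 CPM in RTT_ROSA26. Cxcl16, the ligand of CXCR6, was called lower in Infl_Mono, at 503 and 193 CPM (-1.38), and had 572 and 453 CPM in Monocyte_1 (-0.34). Il15, a cytokine that sustains CD8+ T and NK cells, had 22.5 and 13.8 CPM in Monocyte_1 (-0.67) and 68.8 and 44.9 CPM in Infl_Mono (-0.61), with loads apart but less than 2-fold. The costimulatory gene Cd86 stayed within the spread of the loads in Monocyte_1, at 199 and 192 CPM. Over the members at 20 CPM the medians were -0.30 and -0.15, and over all list members with a UMI they were -0.31 and -0.38.

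Of the inhibitory ligands and enzymes, 12 of 14 were below NTT in each cluster. In Monocyte_1 and Infl_Mono, 0 and 1 were called lower, beside 0.58% and 1.98% of all genes. Cd274, which encodes PD-L1, had 526 and 306 CPM in Monocyte_1 (-0.78) and 596 and 321 CPM in Infl_Mono (-0.89), short of 2-fold with loads apart. Pdcd1lg2, which encodes PD-L2, was called lower in Infl_Mono, at 69.3 and 22.4 CPM (-1.59). The list medians were -0.26 and -0.37.

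MHC class II genes, whose products present peptides to CD4+ T cells, differed more in Infl_Mono than in Monocyte_1, a contrast between clusters that was not tested. The list median was -0.25 in Monocyte_1, with 9 of 11 below NTT and 0 called. In Infl_Mono it was -0.77, with 10 of 11 below and 5 called lower. Among all genes, 0.58% in Monocyte_1 and 1.98% in Infl_Mono were called lower. H2-Ab1, the beta chain of I-A, was at 6543, 7185 and 7225 CPM against 4568, 5072 and 5172 in Monocyte_1 (-0.50). In Infl_Mono, H2-Ab1 was at 5494, 5595 and 5530 CPM against 2281, 2218 and 2272 (-1.29). Loads were apart in both clusters, and the Infl_Mono cells of RTT and RTT_ROSA26 were lower still, at 1333 and 830 CPM. H2-Eb1 (-1.29), H2-DMb2 (-1.18), H2-Aa (-1.16) and the invariant chain Cd74 (-1.0) were called lower with it in Infl_Mono. The call of Cd74 was lost with TMM factors (-0.97) and that of H2-DMb2 with CPM + 10 (-0.73). Their transactivator Ciita was at 66.9 and 64.5 CPM there, with loads overlapping. At 3000 UMIs a cell, 98.5% of NTT and 78.6% of RTT_PTGS12KO Infl_Mono cells had an H2-Ab1 UMI, beside 26.9% and 27.6% of NK cells, which should lack it.

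MHC class I genes present peptides to CD8+ T cells. The list medians were -0.40 in Monocyte_1 and -0.26 in Infl_Mono, each over 23 genes. Of these, 3 and 2 genes were called lower, beside 0.58% and 1.98% of all genes. H2-K1, which carries the ovalbumin peptide that OT-1 cells see, had 3547 and 2153 CPM in Monocyte_1 (-0.72) and 3439 and 2163 CPM in Infl_Mono (-0.67). H2-Q6, a non-classical class I gene, was at 290, 300 and 302 CPM against 96.5, 99.9 and 108 in Monocyte_1 (-1.54), and its log2 ratio in Infl_Mono was -2.08. Its neighbour H2-Q7 was called lower in both as well (-1.07 and -1.31), but in Monocyte_1 it was at -0.84 in cells matched on UMI total and -0.81 in cells with more monocyte than macrophage marker UMIs, short of 2-fold. H2-Q6 and H2-Q7 are near-identical copies, so how reads were divided between them is uncertain.

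**Figure D3:**
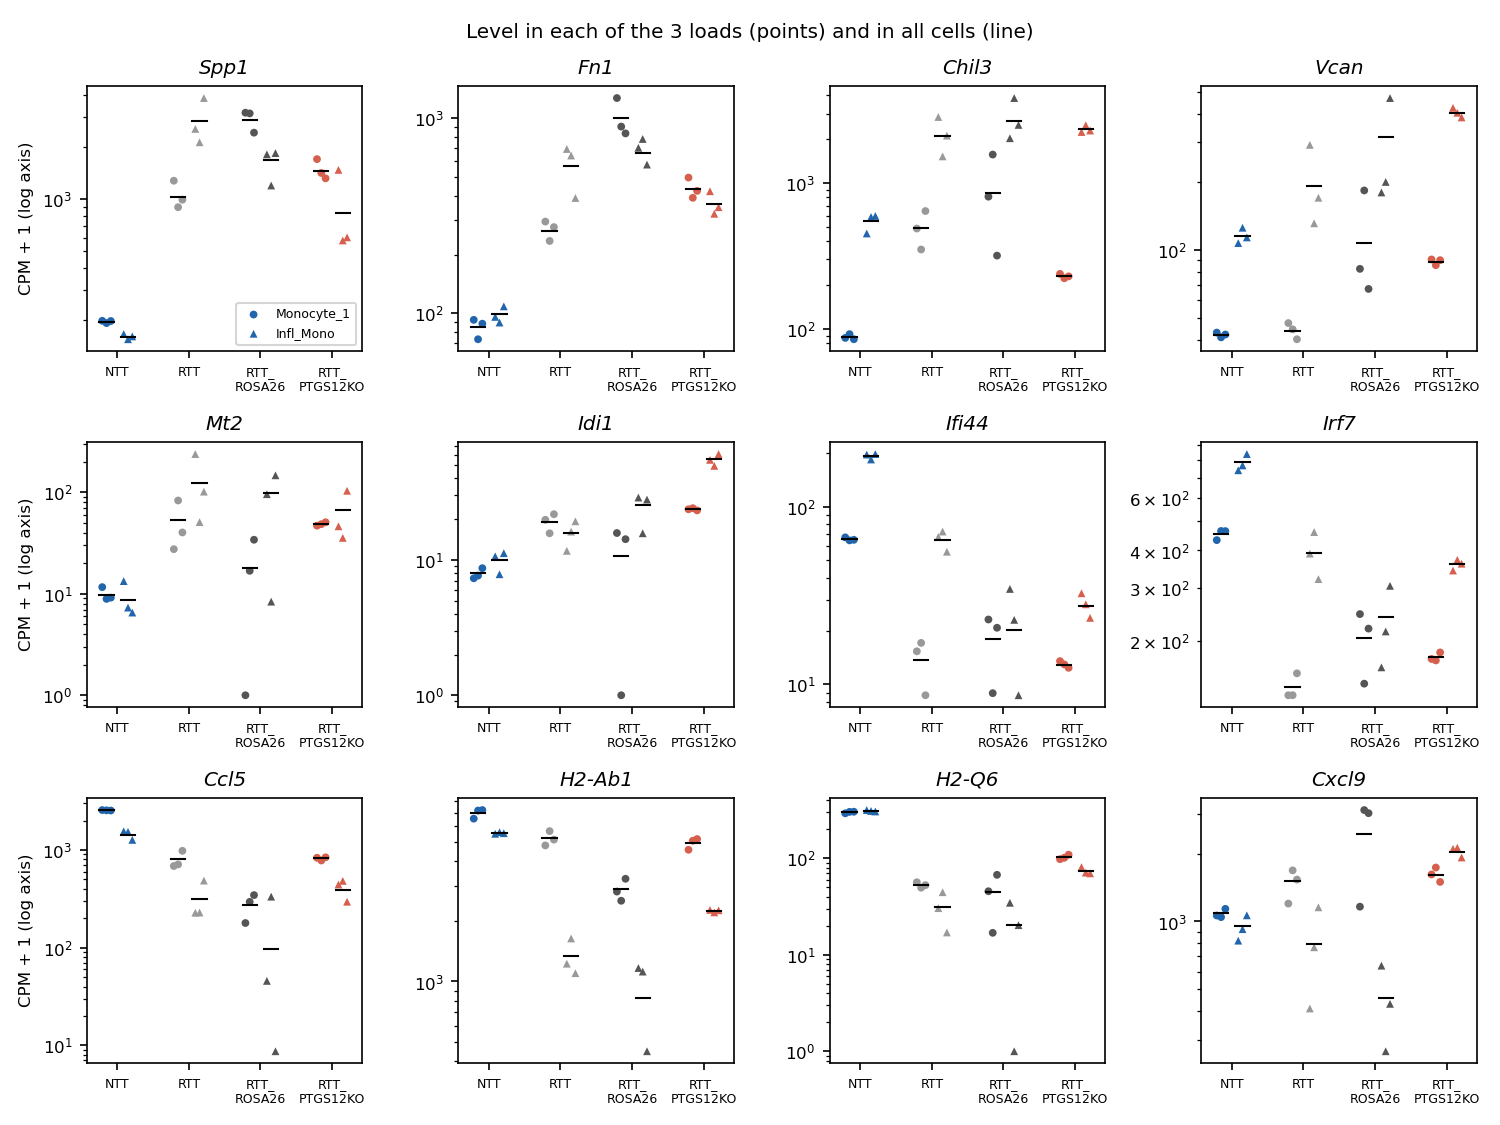
CPM + 1 on a log axis (y) of 12 genes in each of the 3 loads (points) and in the sum of all cells (line) of the 4 tumours (x axis), for Monocyte_1 (circles) and Infl_Mono (triangles). RTT_PTGS12KO points lie clear above the NTT points of the same cluster for Spp1, Fn1, Chil3, Vcan, Mt2, Idi1 and Cxcl9 and clear below them for Ifi44, Irf7, Ccl5, H2-Ab1 and H2-Q6.

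Most genes of cholesterol synthesis were higher in RTT_PTGS12KO in both clusters. Over all 21 list members, whatever their level, 19 were above NTT in each, with medians of 0.74 in Monocyte_1 and 1.36 in Infl_Mono. The members are weakly expressed: 9 and 11 reached 20 CPM, 6 of them in each cluster in RTT_PTGS12KO alone, so that their medians of 0.94 (single loads 0.79 to 1.07) and 1.47 (1.19 to 1.72) are partly set by the filter. In Monocyte_1 the median was 0.66 with CPM + 10 and 0.46 at a minimum of 50 CPM. The calls, 4 and 7 genes, were all higher, but with CPM + 10 none of the 4 in Monocyte_1 reached 2-fold (Idi1 0.95, Fdps 0.96, Cyp51 0.87 and Msmo1 0.80). Against the same NTT cells, the medians were 0.86 for RTT and 0.43 for RTT_ROSA26 in Monocyte_1, and 0.67 and 0.28 in Infl_Mono. Idi1, isopentenyl-diphosphate isomerase, was at 6.32, 6.65 and 7.69 CPM in NTT and 22.7, 23.1 and 22.2 CPM in RTT_PTGS12KO in Monocyte_1 (1.58). In Infl_Mono, Idi1 was at 9.63, 6.83 and 10.2 CPM against 53.9, 48.5 and 59.6 (2.48). Every load of RTT_PTGS12KO exceeded every load of NTT, at levels low enough that the pseudocount matters: with CPM + 10 the ratios of Idi1 were 0.95 and 1.77.

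Enzymes from several steps of the sterol pathway shared the difference. Fdps, which makes farnesyl diphosphate, had log2 ratios of 1.51 in Monocyte_1 and 2.10 in Infl_Mono, and the demethylase gene Cyp51 had 1.41 and 2.08. Squalene synthase, Fdft1, was called in Infl_Mono, at 5.07 and 20.4 CPM (1.81). Hmgcs1, the synthase at the start of the pathway, had 14.4 and 28.7 CPM in Monocyte_1 (0.94) and was called in Infl_Mono, at 14.5 and 46.1 CPM (1.61). The sterol regulatory element, ATCAC and CCAC with any 1 base between them, was in 0 of the 7 list promoters with an entry and in 0.226% of all genes with a promoter.

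Chaperones and folding enzymes of the endoplasmic reticulum were higher by a smaller amount, which ran from 0.10 for Dnajb9 to 0.99 for Creld2 in Monocyte_1. All 18 of a list drawn up after these data were seen were above NTT in both clusters, 17 of them with loads apart in each (24.6% and 21.5% of all genes in this direction), with medians of 0.65 (single loads 0.61 to 0.71) and 0.56 (0.51 to 0.79); 0 were called in Monocyte_1 and 2, Manf and Creld2, in Infl_Mono, where CPM + 10 gave 0.98 and 0.81, short of 2-fold. Hspa5, the chaperone BiP, had 452 CPM in NTT (loads 433 to 469) and 886 in RTT_PTGS12KO (864 to 919) in Monocyte_1 (0.97), and 555 and 1048 CPM in Infl_Mono (0.92). Manf, a secreted stress protein, had 0.97 and 1.01, and the lectin chaperone Calr had 0.63 and 0.57. Herpud1, which takes part in degrading misfolded proteins and is not in the list, was called higher in both (1.52 and 1.24, the latter 0.90 with CPM + 10). Hspa5 was also high in RTT_ROSA26, at 866 CPM in Monocyte_1. Against the same NTT cells, the medians of the chaperone list were 0.26 for RTT and 0.62 for RTT_ROSA26 in Monocyte_1. They were 0.09 and 0.43 in Infl_Mono.

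Promoters of this list hold the endoplasmic reticulum stress element, CCAAT and CCACG with any 9 bases between them, in 7 of the 16 members with an entry and in 0.13% of all genes with a promoter, searched on both strands of the same 250 bases. The windows of Hspa5 (chr2:34772000-34772068, plus strand), Pdia6 (chr12:17266466-17266534, plus strand), Dnajc3 (chr14:118937802-118937870, plus strand) and Creld2 (chr15:88819495-88819563, plus strand) are given with the element in capitals. They are shown because the members moved together, and the occurrence is a description of the letters. The log2 ratios of these 4 genes were 0.97, 0.84, 0.72 and 0.99 in Monocyte_1.
Hspa5: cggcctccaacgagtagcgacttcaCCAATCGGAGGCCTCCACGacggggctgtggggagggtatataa
Pdia6: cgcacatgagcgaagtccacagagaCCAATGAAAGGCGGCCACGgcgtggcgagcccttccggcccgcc
Dnajc3: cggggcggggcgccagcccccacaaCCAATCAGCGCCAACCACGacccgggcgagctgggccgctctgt
Creld2: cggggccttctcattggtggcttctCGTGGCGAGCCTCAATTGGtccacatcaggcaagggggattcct

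**Figure D4:**
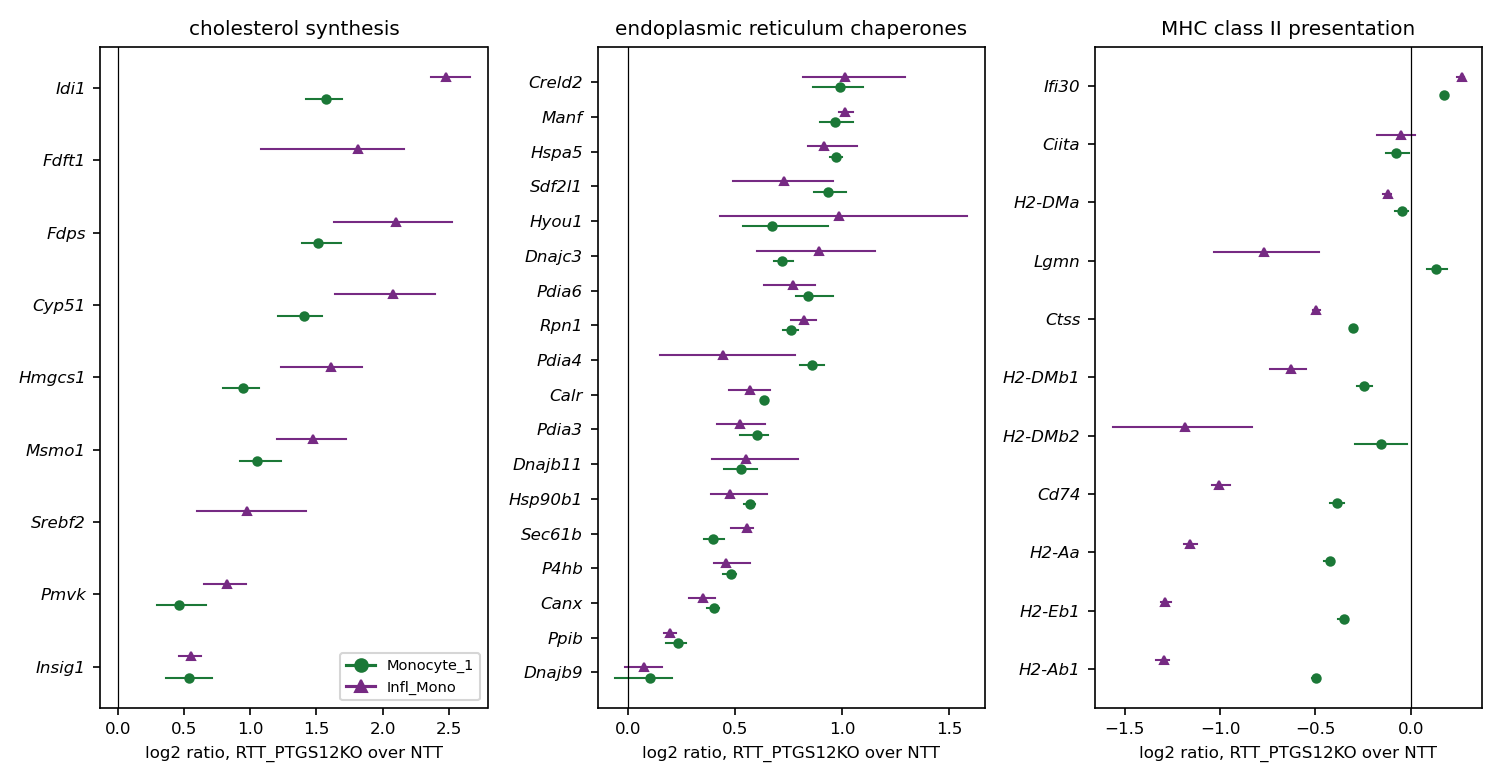
Log2 ratio of CPM + 1 in RTT_PTGS12KO over NTT (x axis) of single genes with at least 20 CPM in 3 lists (2 members of the first are not drawn), in Monocyte_1 (circles) and Infl_Mono (triangles), with lines spanning the ratios of the 3 loads taken singly. Cholesterol synthesis and chaperone genes lie right of 0 in both clusters, and H2-Ab1, H2-Eb1, H2-Aa and Cd74 lie left of it, further in Infl_Mono.

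The metallothionein genes Mt1 and Mt2, whose products bind zinc and copper, were higher in RTT_PTGS12KO, although single loads differed widely in Infl_Mono. Mt2 was at 10.6, 7.91 and 8.16 CPM in NTT and 45.9, 47.5 and 49.7 in RTT_PTGS12KO in Monocyte_1 (2.31). In Infl_Mono, Mt2 was at 12.3, 6.31 and 5.53 CPM against 45.2, 34.6 and 103 (2.95), and the third load of RTT_PTGS12KO stood well above the other two; without it the ratio was 2.01, and in cells with more monocyte than macrophage marker UMIs it was 1.28. Mt1 had 402 and 732 CPM in Monocyte_1 (0.86) and 298 and 752 CPM in Infl_Mono (1.33, and 0.64 in those cells). Mt2 was also high in RTT, at 52.9 and 122 CPM in Monocyte_1 and Infl_Mono, while RTT_ROSA26 had 17.0 CPM in Monocyte_1 (loads 0 to 33.1) and 97.4 CPM in Infl_Mono. All 13 mitochondrially encoded genes were above NTT in both clusters, with medians of 0.48 and 0.51, beside 0.08 and 0.11 for nuclear genes of oxidative phosphorylation.

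Spp1 and Fn1, secreted matrix proteins that macrophages of tumours make, had the highest ratios of the called genes in Monocyte_1. Spp1 (osteopontin) was at 197, 191 and 197 CPM in NTT and 1707, 1419 and 1322 in RTT_PTGS12KO in Monocyte_1 (2.90). In Infl_Mono, Spp1 was at 165, 154 and 160 CPM against 1479, 577 and 601 (2.39). The first load of RTT_PTGS12KO was the highest in both clusters, and even the lowest was above every NTT load. RTT and RTT_ROSA26 had 1028 and 2888 CPM of Spp1 in Monocyte_1. Fn1 (fibronectin) was at 91.5, 72.6 and 87.4 CPM against 495, 390 and 423 in Monocyte_1 (2.35), and its ratio in Infl_Mono was 1.87. Macrophage marker UMIs were higher in RTT_PTGS12KO in Monocyte_1, and in the 2071 of 3347 RTT_PTGS12KO and 3884 of 4977 NTT cells with more monocyte than macrophage marker UMIs the ratios there were 1.73 for Spp1 and 1.74 for Fn1.

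Spp1 RNA was spread unevenly over the cells. At 3000 UMIs a cell, 49.6% (95% exact binomial interval 47.9 to 51.3) of RTT_PTGS12KO Monocyte_1 cells and 26.9% (25.7 to 28.2) of NTT ones had a Spp1 UMI, and 74.0% and 49.9% without thinning. In cDC2, dendritic cells taken as a type that should lack it, 26.8% and 24.4% did, with median depths of 9169 and 7236 UMIs, so the NTT share was near that of cDC2. NK cells could not serve here, since 66.1% and 66.3% of them had a Spp1 UMI. Fn1 was found in 36.5% of RTT_PTGS12KO and 13.2% of NTT Monocyte_1 cells, and in 10.6% and 5.03% of NK cells of the same tumours. The 10% of RTT_PTGS12KO cells with the most Spp1 held 73.5% of its UMIs in Monocyte_1 and 84.2% in Infl_Mono. RTT_PTGS12KO Monocyte_1 cells with a Spp1 UMI had more Apoe, a lipid carrier of macrophages, than those without (2495 and 1165 CPM) and less Ly6c2 (970 and 1765 CPM).

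**Figure D5:**
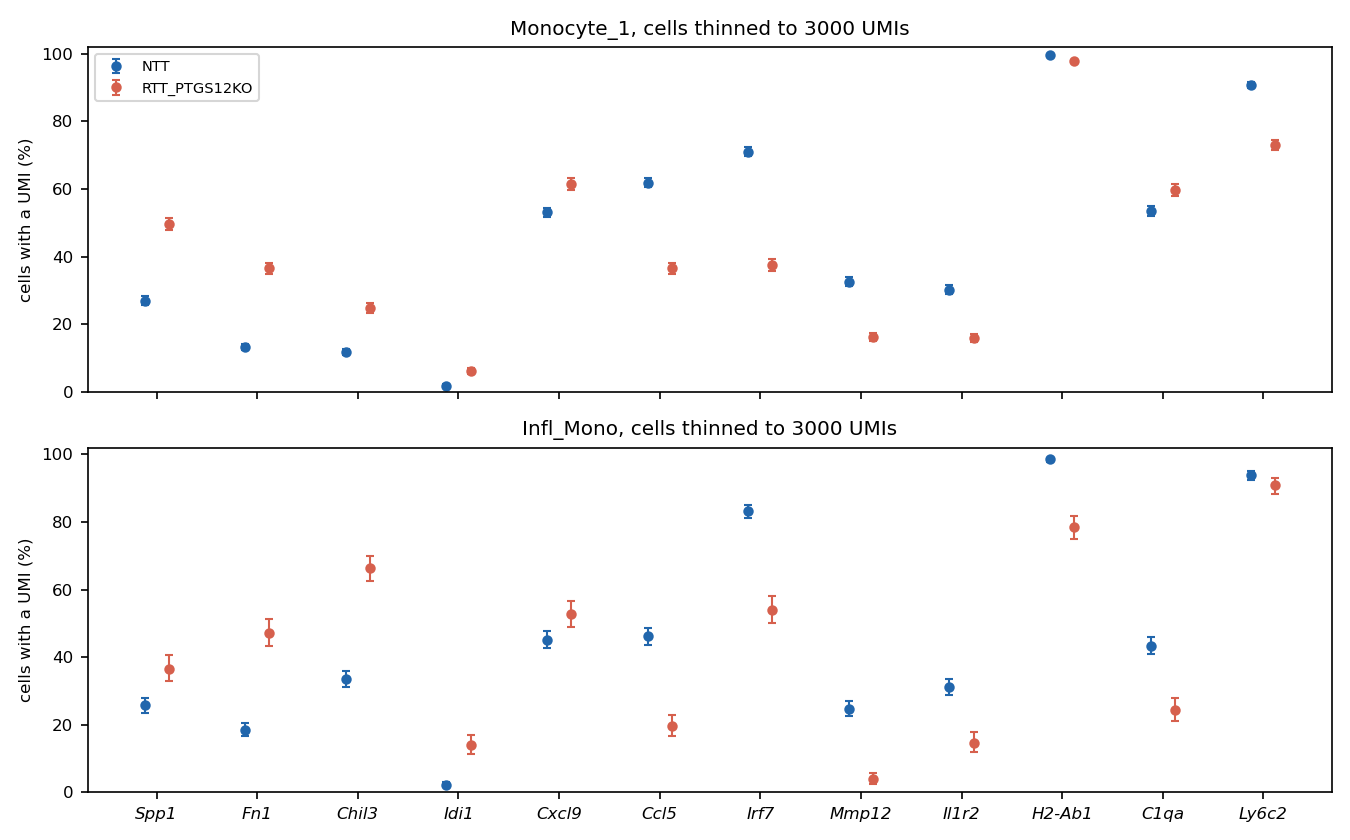
Share of cells with at least 1 UMI of a gene (y axis, %) among Monocyte_1 (top) and Infl_Mono (bottom) cells thinned to 3000 UMIs, for NTT (blue) and RTT_PTGS12KO (red), with 95% exact binomial intervals over cells. Spp1, Fn1, Chil3, Idi1 and Cxcl9 were found in more cells of RTT_PTGS12KO, and Ccl5, Irf7, Mmp12 and Il1r2 in fewer, in both clusters; 44 and 110 Monocyte_1 cells and 10 and 46 Infl_Mono cells of RTT_PTGS12KO and NTT were too shallow to be thinned.

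Genes of blood monocytes did not move as 1 block. The monocyte identity list had a median of 0.01 in Monocyte_1 and 0.33 in Infl_Mono. Of its 23 members at 20 CPM, 3 and 5 were called higher, beside 0.622% and 1.09% of all genes. In either cluster 0 were called lower. Chil3, a chitinase-like protein of classical monocytes, was at 451, 585 and 595 CPM in NTT and 2241, 2494 and 2293 in RTT_PTGS12KO in Infl_Mono (2.08), and its ratio in Monocyte_1 was 1.39. Vcan (versican) was at 106, 124 and 113 CPM against 424, 404 and 385 in Infl_Mono (1.80), and its ratio in Monocyte_1 was 1.08 (0.94 with CPM + 10, short of 2-fold). RTT_ROSA26 reached 2671 CPM of Chil3 and 315 of Vcan in Infl_Mono. Ly6c2 was at 2229 and 1342 CPM in Monocyte_1 (-0.73) and 3499 and 2893 CPM in Infl_Mono (-0.27), while the chemokine receptor gene Ccr2 was at 326 and 450 CPM in Monocyte_1 (0.46) and 396 and 656 CPM in Infl_Mono (0.73), none of them past 2-fold.

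Genes of macrophage maturation were mixed. Over all 38 list members, whatever their level, 30 were above NTT in Monocyte_1, with a median of 0.22, and 18 were above and 20 below in Infl_Mono, with a median of -0.06; the contrast between clusters was not tested. Among those at 20 CPM, the list median was 0.19 in Monocyte_1, with 24 of 31 above NTT and 5 called higher. It was -0.25 in Infl_Mono, with 12 of 30 above, 2 called higher and 3 lower. Among all genes, 0.622% were called higher in Monocyte_1, and 1.09% higher and 1.98% lower in Infl_Mono. In Monocyte_1 the direction depended on the cells kept: the median was -0.10 in those with more monocyte than macrophage marker UMIs. The list shares C1qa, C1qc and Fcrls with the macrophage markers, so its median in those cells is partly set by how they were chosen. Cd81, a tetraspanin, was called higher in Monocyte_1, at 40.5 and 160 CPM (1.96, and 1.16 in those cells), and overlapped between loads in Infl_Mono (0.43). The complement genes C1qa and C1qc were called lower in Infl_Mono, where C1qa had 876 and 364 CPM (-1.26) and C1qc 752 and 344 CPM (-1.13, and -0.97 without the first load), and differed little in Monocyte_1 (0.08 and 0.14).

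Infl_Mono also held several called genes with large negative ratios. Mmp12, the macrophage elastase, was at 286 CPM in NTT (loads 256 to 345) and 44.5 in RTT_PTGS12KO (loads 30.3 to 57.2), a ratio of -2.66, and in Monocyte_1 it had 433 and 224 CPM (-0.95). Itgax, which encodes CD11c, had 95.1 and 19.0 CPM (-2.27). Rgs1, a brake on chemokine receptor signalling, had 821 and 195 CPM (-2.07). These genes lay below NTT with loads apart in both clusters, and the 2-fold line was passed in Infl_Mono. Il1r2, the decoy receptor for interleukin-1, was called lower in both, at 201 and 81.0 CPM in Monocyte_1 (-1.30) and with -1.55 in Infl_Mono. The eosinophil chemokine Ccl24 had 56.1 and 5.79 CPM in Infl_Mono (-3.07), on NTT loads that ranged from 12.3 to 91.5. In Monocyte_1, the recruiting chemokine Ccl7 was called higher, at 123 and 349 CPM (1.50), with its neighbour Ccl2 at 469 and 900 CPM (0.94).

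No gene of the prostaglandin list was called in either cluster of these unedited host cells. Ptgs2 had 692 and 563 CPM in Monocyte_1 (-0.30), and in Infl_Mono 571 and 460 CPM with loads overlapping. Ptgs1 was rare, at 6.23 and 4.25 CPM in Monocyte_1. The receptor gene Ptger2 had 11.7 and 11.0 CPM there and Ptger4 13.6 and 13.5 CPM. Over 7 list members at 20 CPM the medians were 0.01 and -0.23, and over all members with a UMI the Infl_Mono median was -0.12. Genes that cAMP induces had medians of -0.13 and -0.31 over all 26 members and of -0.29 and -0.28 over the 19 at 20 CPM. Among them Vegfa, the angiogenic factor, had 256 and 162 CPM in Monocyte_1 (-0.66) and was called lower in Infl_Mono, at 236 and 99.96 CPM (-1.23), while Crem had 101 and 91.6 CPM with loads overlapping in Monocyte_1.

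Chemokines that recruit myeloid cells were mixed. Over all 17 members with a UMI in Monocyte_1, 11 were above NTT and 6 below, with a median of 0.27; the 13 at 20 CPM had a median of 0.56 but single loads gave -0.19 to 0.46, with 1 called higher and 2 lower. In Infl_Mono 8 of all members with a UMI were above NTT and 8 below, with a median of -0.02; the 13 at 20 CPM had -0.26, but 3 of them reached it in NTT alone. Genes of S phase and mitosis were rare, with 4 and 3 of 30 at 20 CPM. Over all 30 members 27 were above NTT in Monocyte_1 (median 0.43) and 18 in Infl_Mono (0.12). Iron and redox genes had medians of -0.14 and -0.07 over all 21 members, and of -0.11 and 0.06 over those at 20 CPM. The medians that follow are over members at 20 CPM. Immediate-early and heat-shock genes had -0.28 and 0.03 (0.11 over all members in Infl_Mono). Glycolysis and hypoxia genes had medians of -0.02 and -0.32, complement and Fc receptors -0.03 and -0.47, and lysosome genes -0.02 and -0.11. Inflammatory cytokines and NF-kB genes had -0.38 and -0.26, with Il1b at 3468 and 2438 CPM in Monocyte_1 (-0.51). Matrix and angiogenic factors had 0.01 and -0.01, and ribosomal protein genes 0.19 and 0.17.

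Several of the differences were present in other immune cells of the same tumours. The type I interferon list had medians of -1.17 in NK cells, -0.96 in cDC2, -0.98 in the macrophage cluster TAM_H2Ab1 and -0.38 in neutrophils, and Ifi44 had -2.87, -2.15, -3.16 and -2.88 in the same order. Cholesterol synthesis had 0.88, 1.06, 0.46 and 0.41. Chaperones had 0.39, 0.10, 0.49 and 0.59, but in cDC2 they were split, with 9 above NTT and 8 below. Metallothioneins had 1.90, 2.09, 1.7 and 2.22. Among single genes, Fn1 had 1.80, 2.11, 3.23 and 3.68 in the same order, and Spp1 had 0.24, 0.76, 3.14 and 1.45. Ccl5 was lower in each, at 3653 CPM in NTT and 1289 in RTT_PTGS12KO in NK cells, and at 604 and 141 in cDC2. Ccl5 was at 1445 and 344 CPM in TAM_H2Ab1 and at 1399 and 175 CPM in neutrophils. The differences in Fn1, Spp1 and Ccl5 were thus not confined to monocytes. These clusters share the tumours and loads with the monocytes, so they are not further replicates.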

How the data were processed

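Single-cell RNA-seq of sorted CD45+ cells (CellPlex 3′ libraries, 4 tumours pooled and loaded 3 times) was analysed from the counts the authors deposited: UMI counts per gene and cell after Cell Ranger and Seurat 4.3.0 on mm10, in cells that the authors kept for more than 1000 genes, less than 15% mitochondrial and less than 40% ribosomal RNA, and with the deposited cluster names. Oligo tags removed doublets between tumours; doublets within a tumour were not searched for. RNA free in a load is common to all tumours. Per the labels each sample is 1 tumour, whereas the study's legends speak of pooled tumours.

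Counts were summed by tumour and cluster and scaled to 1000000 UMIs (CPM). Ratios are log2(CPM + 1), which understates changes of low genes, for genes with at least 20 CPM in either tumour; a call needs a 2-fold difference and non-overlapping loads. No test was possible, and the intervals (95%) cover counting error. The scripts were tested on simulated data. Genes were named by rule: 24 preset genes, the 12 highest and 12 lowest ratios in each cluster at 50 CPM or more with loads apart, and up to 3 extremes of each list each way; others were chosen after their values were seen, among them Slfn4, Isg20, Calr, Herpud1 and the genes whose promoters are shown. Members and lists were chosen with earlier results of these data known; chaperones, metallothioneins, and ribosomal, mitochondrial and oxidative phosphorylation genes were added after seeing the data. Some genes and alleles are not reported here. Alternatives were TMM factors, median centring, CPM + 10, a minimum of 50 CPM or none, cell means, cells matched on UMIs, no top 5% of cells, monocyte-marker cells, and leaving out a load. Python 3.11.15, numpy 2.4.6, scipy 1.17.1, pandas 2.3.3 and edgeR 4.0.16 were used.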

Additional observations from a re-analysis of the deposited data

Results flagged for a closer look

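In 2 genes every load of RTT_PTGS12KO lay on opposite sides of NTT in the 2 clusters. For C1qa, a subunit of complement C1q, the log2 ratio over NTT was 0.08 in Monocyte_1 and -1.26 in Infl_Mono, a difference of -1.34. For C1qc, another subunit, the ratios were 0.14 and -1.13, a difference of -1.27. The difference between clusters was not tested. The Monocyte_1 value of C1qa was -0.13 in cells matched on UMI total, so that in those cells it was below NTT in both clusters. It was -0.40 in cells with more monocyte than macrophage marker UMIs. C1qa is itself 1 of the 10 macrophage markers that chose the latter cells, so the -0.40 is partly set by that choice.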

How the results depend on the processing

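No paired analysis was possible because NTT and RTT_PTGS12KO hold a single sample apiece. With 1 sample a side, no value here carries biological error, and genes near 20 CPM rest on few UMIs in Infl_Mono of RTT_PTGS12KO.

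In Monocyte_1 the type I interferon median was -0.61 with TMM factors, -0.61 after median centring, -0.57 with CPM + 10, -0.58 at a minimum of 50 CPM, -0.61 with no minimum, -0.60 with cell means, -0.57 in cells matched on UMIs and -0.45 in cells with more monocyte than macrophage marker UMIs. In those last cells the type II median was -0.13. The macrophage maturation median reversed to -0.10 there, partly set by how the cells were chosen, since its list shares genes with the macrophage markers. It was 0.13 with cell means and 0.08 in matched cells, where the MHC class II median was -0.16 and the chaperone median 0.54. Cholesterol synthesis had 0.66 with CPM + 10 and 0.46 at 50 CPM. Calls (higher; lower) were 16 and 12 with CPM + 10, 14 and 13 at 50 CPM, and 108 and 63 with no minimum. In Infl_Mono, the type II median was -0.12 with TMM factors, -0.13 without the top 5% of cells and -0.12 in monocyte-marker cells, where macrophage maturation had -0.57. Calls in Infl_Mono were 32 and 53 with CPM + 10, 30 and 57 at 50 CPM, and 122 and 279 with no minimum. Leaving out a load in turn gave 30 to 38 higher and 28 to 33 lower calls in Monocyte_1 and 51 to 57 and 94 to 114 in Infl_Mono, with Infl_Mono medians of -0.55 to -0.38 for type I interferon, -0.92 to -0.68 for MHC class II and 1.25 to 1.57 for cholesterol synthesis. No called gene among those named reversed. The causes of these shifts were not tested.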

Other observations

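Some further single genes were picked after their values were seen, and they stand for no group. In Infl_Mono, Lcn2, which binds bacterial siderophores, had 10.4 CPM in NTT and 48.1 in RTT_PTGS12KO (log2 ratio 2.11), and the protease gene Prtn3 had 15.8 and 50.3 CPM (1.61); both reached 20 CPM in RTT_PTGS12KO alone. The collagenase gene Mmp8 had 28.0 and 65.1 CPM (1.19, and 0.98 with CPM + 10) and haptoglobin, Hp, 121 and 315 CPM (1.37), whereas Hp in Monocyte_1 had 67.7 and 60.2 CPM with loads overlapping. Neutrophil markers had 6 of all 12 members above NTT in Infl_Mono, 3 of 7 at 20 CPM, and their sum was lower in RTT_PTGS12KO, 2351 against 3335 CPM.

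Abcg1, a cholesterol exporter, had 124 and 63.7 CPM in Monocyte_1 (-0.94) and was called lower in Infl_Mono, at 137 and 63.3 CPM (-1.10, and -0.99 in cells matched on UMI total, short of 2-fold). Ch25h, which makes 25-hydroxycholesterol, was called higher in Monocyte_1, at 16.8 and 51.4 CPM (1.56), and overlapped between loads in Infl_Mono (0.35).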
